A study of Mus musculus with 18 samples.

Results

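Integrins are the receptors by which cells hold their extracellular matrix, and each is a pair of 1 α and 1 β chain. The α chain largely sets the ligand (collagens, laminins, or the RGD sequence of fibronectin and vitronectin), and the β chain carries the cytoplasmic tail that joins the receptor to actin. In fibroblasts, integrins sense the stiffness of the matrix, and those with the αv chain also release TGF-β from its latent complex. The genes described here are 10 integrin subunit genes of fibroblasts, chosen by name from the 55450 genes of the table. They are the collagen-binding α chains Itga1, Itga2 and Itga11, the laminin-binding Itga3 and Itga6, the fibronectin- and vitronectin-binding Itga5 and Itgav, and the β chains Itgb1, Itgb3 and Itgb5. All 10 passed the filter on low counts and were tested. The positions given with each gene are those of GRCm38.

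mRNA of mouse embryonic fibroblasts (MEF) from American Type Culture Collection was sequenced in 18 libraries, 3 in each of 6 groups. The cells were transfected with the Empty vector (pcDNA3), with Col1a1-miR-29b or with CMV-miR-29b, and 6 h later received 20 ng/ml TGF-β or none for 24 h. Both miR-29b plasmids are built on pcDNA3 and hold EGFP and human miR-29b-1 behind a rat Col1a1 or a CMV promoter, and mRFP1 behind an SV40 promoter, whereas the Empty vector lacks all 3 inserts, so effects of miR-29b, of the other inserts and of the mass of DNA cannot be told apart. Transfection was by lipid, and the share of cells that took up plasmid is not in the counts. miR-29b is a microRNA known for repressing collagen mRNAs. The study describes repeated experiments, but the labels do not say whether the libraries of a group came from separate cultures, so p-values measure the spread between these libraries, and in bulk RNA fewer cells of a type and less RNA per cell cannot be told apart.

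Total counts per library were 65898017 to 80332633. The precursor gene Mir29b-1 had 0 counts in all 6 Empty vector libraries, 0 to 1 in Col1a1-miR-29b cells and 2 to 6 with TGF-β, and 110 to 309 in CMV-miR-29b cells and 203 to 293 with TGF-β. Reads on this gene do not measure the mature microRNA. Of 10 fibroblast markers, Lum was at 0 and Thy1 at 8 counts or fewer in every library, whereas Vim had 32733 to 55911 counts and Col1a1 53651 to 182026. Epithelial Epcam had at most 4 counts, leukocyte Ptprc at most 25 and megakaryocyte Pf4 at most 4. The keratin Krt19 (2637 to 6650 counts), Cd68 (613 to 1004) and Des (951 to 1630), listed as markers of other cell types, were all present. So were the platelet and megakaryocyte markers Itga2b (526 to 822) and Gp1ba (103 to 260).

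To show where miR-29b could pair with these mRNAs, its mature sequence is given first, with the seed (bases 2 to 8) in capitals, followed by the 3 stretches of integrin 3′ untranslated regions (UTRs) that hold the complement of the seed, TGGTGCT, in capitals. They were read on the strand of each gene from GRCm38 and, for the microRNA, from RefSeq (build GRCm38.p6).
mmu-miR-29b-3p, chr6:31063025-31063047, minus strand: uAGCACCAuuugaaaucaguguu
Itga5, chr15:103344747-103344769, minus strand: accgtggaTGGTGCTgcaggacc
Itgb1, chr8:128732867-128732889, plus strand: ttaattccTGGTGCTcctttatc
Itgb3, chr11:104670083-104670105, plus strand: gaggcttgTGGTGCTtgggcggc
The other 7 subunits held no match in the longest annotated 3′ UTR. Among tested genes with a 3′ UTR, 2132 of 14375 (14.8%) held at least 1 match. Among tested genes with UTRs of like length the share was 10.1% for Itga5 (983 bases), 11.3% for Itgb1 (1112 bases) and 29.7% for Itgb3 (3331 bases). None of the 3 matches is followed by A, and a match of letters is no evidence of binding. Imperfect matches and other UTRs of a gene were not searched, so a gene without a match may still be bound.

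Before treatment, the mRNA pool of these subunits was dominated by the fibronectin receptor chains Itga5 and Itgb1. Levels between genes were compared as FPKM (fragments scaled by transcript length and by library size). In Empty vector cells Itgb1 had 211 ± 6.74 FPKM (SD, n = 3), followed by Itga5 at 30.7 ± 0.644 FPKM and Itgb5 at 15.5 ± 1.09 FPKM. Itgav (10.6 ± 3.61 FPKM) and Itga3 (10.5 ± 1.21 FPKM) came next, and their libraries overlapped. Itga6 had 7.90 ± 0.467 FPKM. The remaining subunits were scarce. Itga11 had 0.255 ± 0.0553 FPKM, Itgb3 0.121 ± 0.0404 FPKM and Itga1 0.117 ± 0.0443 FPKM, and the libraries of Itgb3 and Itga1 overlapped. Itga2 was lowest at 0.0117 ± 0.0200 FPKM, all of it from 1 library.

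The group means kept this order in all 6 groups, while Itga3 and Itga6 overlapped in both Col1a1-miR-29b groups and in CMV-miR-29b + TGF-β. In Empty vector + TGF-β the neighbours Itgav and Itga3, and Itga1 and Itga2, overlapped, and Itgb3 (0.417 ± 0.0650 FPKM) stood above Itga1 (0.119 ± 0.0154 FPKM). Among the 7 α chains, Itga5 made up 51.3% ± 3.21 of the summed FPKM without TGF-β and 62.0% ± 0.649 with it (mean ± SD, n = 3). Itga11 made up 0.432% ± 0.131 and 2.36% ± 0.154. Among the 3 β chains, Itgb1 was 93.1% ± 0.664 without TGF-β and 90.2% ± 0.430 with it, and Itgb5 was 6.87% ± 0.646 and 9.66% ± 0.420. These shares are a description of the mRNA, with no test, and say nothing of receptor numbers at the cell surface.

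**Figure D1:**
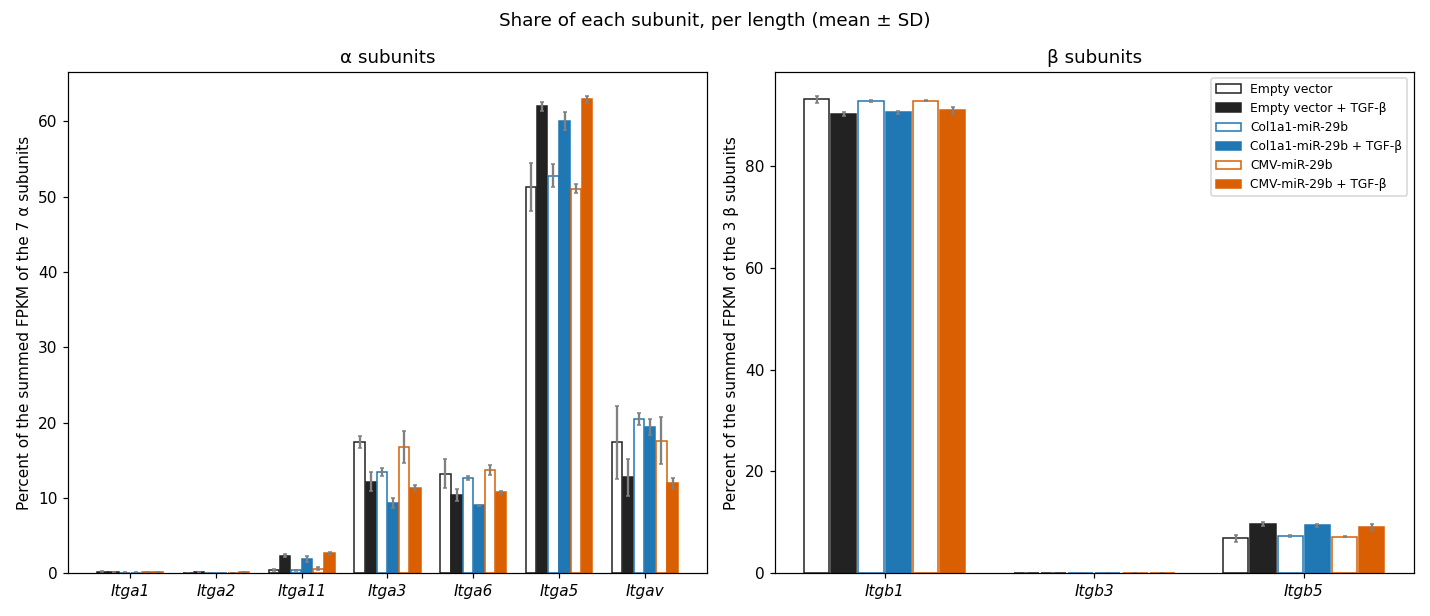
Share of each subunit in the summed FPKM of the 7 α chains (left) and the 3 β chains (right), in percent, for the 6 groups (bars: mean, whiskers: SD over 2 or 3 libraries; open bars without and filled bars with TGF-β). Itga5 and Itgb1 hold the largest share of their class in every group.

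The first question was how TGF-β, the main inducer of matrix production in fibroblasts, changed its receptors. In Empty vector cells, 5 of the 10 subunits rose (Itga11, Itgb3, Itgb5, Itga5 and Itgb1) and 1 fell (Itga3), with 4 not passing an adjusted p of 0.05 (edgeR quasi-likelihood test, Benjamini-Hochberg over 21161 genes). Over all genes tested 3.88% were called higher and 2.01% lower (820 and 425 genes, or 672 and 593 with scaling by total counts). In Col1a1-miR-29b cells 5 rose and 1 fell, where 3.0% of all genes were called higher and 1.32% lower. In CMV-miR-29b cells 5 rose and 2 fell, against 3.08% higher and 1.87% lower over all genes. The same 5 subunits rose with each vector. With the 3 vectors averaged, 6 rose, Itga2 among them, and 2 fell, Itga3 and Itga6, where 7.83% of all genes were called higher and 5.86% lower (1656 and 1241 genes, or 1415 and 1608 with scaling by total counts). The median log2 fold change of the 10 subunits in Empty vector cells was 0.34, beside 0.002 over all genes tested.

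**Figure D2:**
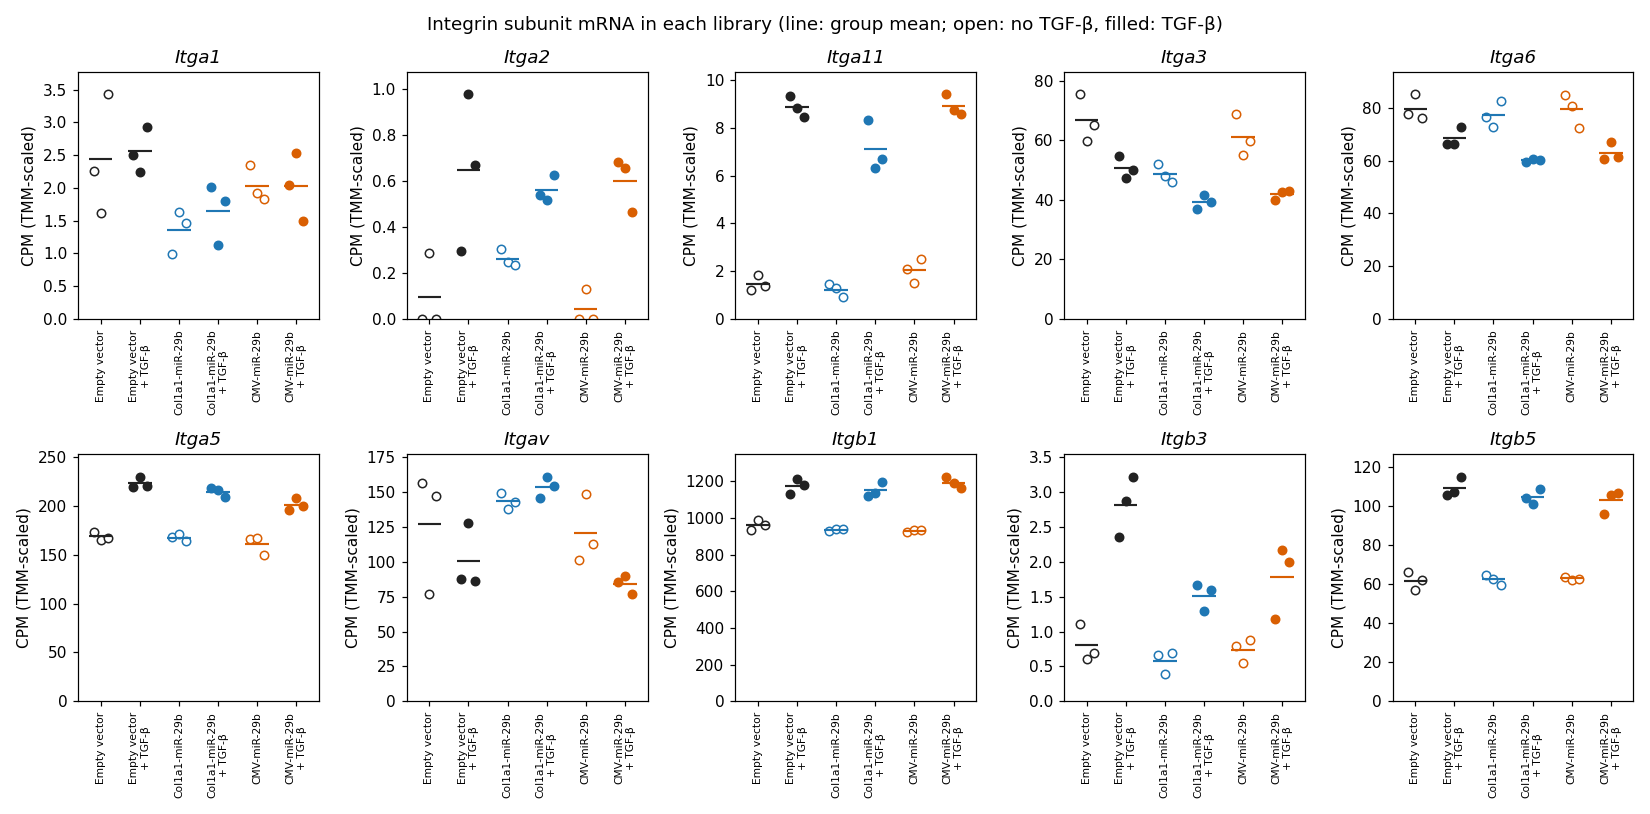
TMM-scaled counts relative to library size (CPM, linear axes from 0) of each subunit in every library, by group (points: libraries, lines: group means; open points without and filled points with TGF-β). Itga11, Itga2, Itga5, Itgb1, Itgb3 and Itgb5 are higher in all treated libraries of each vector than in the untreated ones. For Itga2 the gap with the Empty vector is small (0.295 against 0.287 CPM). The share of all genes without overlap is not given here.

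Itga11 (chr9:62677826-62783982, plus strand), which pairs with Itgb1 into a receptor for fibrillar collagens and is known from fibroblasts and myofibroblasts, rose most among the subunits called in each vector. In Empty vector cells Itga11 had 1.21, 1.82 and 1.37 CPM (in this order, replicates c, d and e), and 9.34, 8.81 and 8.44 CPM with TGF-β. The 3 libraries of Col1a1-miR-29b cells had 1.47, 1.29 and 0.917 CPM, and 8.34, 6.31 and 6.71 CPM with TGF-β, the last of each without a replicate letter. CMV-miR-29b cells had 2.09, 1.5 and 2.52 CPM, and 9.40, 8.76 and 8.59 CPM with TGF-β. The treated and untreated libraries were far apart with each vector. The log2 fold change was 2.59 (SE 0.21, adjusted p = 9.91e-07) in Empty vector cells, a 6.03-fold rise, 2.54 (SE 0.21, adjusted p = 1.61e-06) in Col1a1-miR-29b cells and 2.13 (SE 0.21, adjusted p = 7.08e-06) in CMV-miR-29b cells (edgeR). None of the alternatives run ended these calls.

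The other collagen-binding chains were scarce, and Itga2 was near the limit of the depth. Itga2 (chr13:114833081-114932100, minus strand), the α chain of the platelet and epithelial collagen receptor, had 0, 23 and 0 counts in Empty vector cells and 21, 76 and 49 with TGF-β. It had 22, 19 and 17 counts in Col1a1-miR-29b cells, and 40, 38 and 44 with TGF-β. Counts in CMV-miR-29b cells were 0, 10 and 0, and 50, 43 and 34 with TGF-β. Treated libraries were above untreated ones except that the lowest treated Empty vector library (21 counts) was below the highest untreated one in raw counts, though not in CPM (0.295 against 0.287). The log2 fold change was 2.74 (SE 1.13, adjusted p = 0.211) in Empty vector cells, 1.09 (SE 1.04, adjusted p = 0.75) in Col1a1-miR-29b cells and 3.75 (SE 1.23, adjusted p = 0.11) in CMV-miR-29b cells (edgeR), and averaged over the vectors it was 2.52 (SE 0.66, adjusted p = 0.0158), which passed.

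The calls of Itga2 depended on single libraries and on the method. Without Empty vector replicate d, which held all 23 counts of its group, the adjusted p was 0.00815 in Empty vector cells and 0.0261 in CMV-miR-29b cells. Without CMV-miR-29b replicate d it was 0.0302 in CMV-miR-29b cells, where it was 0.0278 with DESeq2, 0.0221 with counts divided by 4 and 0.0367 with limma on log2(FPKM + 0.1). Leaving out either replicate d removed the only library of its own group with any count, so the remaining libraries of that group were at 0. The values with DESeq2, counts divided by 4 and limma kept both of these libraries. Without both unlettered Col1a1-miR-29b libraries, an alternative chosen after seeing the data, the averaged adjusted p was 0.0535.

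Itga1 (chr13:114953096-115101964, minus strand), the α chain of a receptor that prefers collagen IV, had group means of 1.36 to 2.56 CPM over the 6 groups. Its log2 fold change was 0.07 (SE 0.29, adjusted p = 0.953) in Empty vector cells, 0.27 (SE 0.29, adjusted p = 0.794) in Col1a1-miR-29b cells and −0.01 (SE 0.29, adjusted p = 0.998) in CMV-miR-29b cells (edgeR). Pelo, a gene on the same strand inside Itga1, had 1608 to 2347 counts per library, so reads of Itga1 are uncertain.

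Both laminin-binding chains were lower with TGF-β. Itga3 (chr11:95044474-95076797, minus strand), a receptor chain for laminins of basement membranes, was the subunit called lower in Empty vector cells. Its levels in Empty vector cells were 75.5, 59.8 and 65.3 CPM without TGF-β and 54.7, 47.5 and 50.2 CPM with it. Those in Col1a1-miR-29b cells were 52.1, 48.1 and 46.1 CPM and 37.0, 41.6 and 39.2 CPM, and those in CMV-miR-29b cells 68.9, 55.0 and 59.8 CPM and 40.04, 42.8 and 43.0 CPM. With each vector every treated library lay below every untreated one. The log2 fold change was −0.40 (SE 0.09, adjusted p = 0.0183) in Empty vector cells, −0.31 (SE 0.09, adjusted p = 0.0844) in Col1a1-miR-29b cells and −0.55 (SE 0.09, adjusted p = 0.00196) in CMV-miR-29b cells (edgeR). In Empty vector cells the call was lost without Empty vector replicate c (adjusted p = 0.0871), without Empty vector + TGF-β replicate d (0.0578) or e (0.0673), and in a fit of the compared groups alone (0.0946). In Col1a1-miR-29b cells the call was gained with DESeq2 (adjusted p = 0.0312) and with scaling by total counts (0.0407).

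Itga6 (chr2:71745616-71856758, plus strand), which pairs with Itgb1 or Itgb4 into laminin receptors, was also lower with TGF-β. Without TGF-β, Itga6 had 77.7, 85.1 and 76.0 CPM with the Empty vector, 76.6, 72.7 and 82.6 CPM with Col1a1-miR-29b and 85.0, 80.7 and 72.3 CPM with CMV-miR-29b. With TGF-β the values were 66.3, 66.3 and 72.7 CPM, 59.5, 60.4 and 60.2 CPM and 60.7, 67.0 and 61.4 CPM. The groups did not overlap with any vector. Its log2 fold change was −0.22 (SE 0.07, adjusted p = 0.0822) in Empty vector cells, −0.37 (SE 0.07, adjusted p = 0.00455) in Col1a1-miR-29b cells and −0.33 (SE 0.07, adjusted p = 0.00825) in CMV-miR-29b cells (edgeR). In Empty vector cells the call was gained with DESeq2 (adjusted p = 0.0317), with scaling by total counts (0.0289) and without CMV-miR-29b replicate e (0.0425). In Col1a1-miR-29b cells it was lost by limma on log2(FPKM + 1) (0.0588) and log2(FPKM + 0.1) (0.0552) and without the unlettered libraries (0.0739), and in CMV-miR-29b cells when replicate c without TGF-β was left out (0.0515) and in the fit of the compared groups alone (0.084). The summed level of 7 epithelial markers, nearly all of it Krt19, was lower with TGF-β, from 69.1 to 84.2 CPM in Empty vector libraries to 42.2 to 52.2 CPM with TGF-β, from 64.5 to 65.0 CPM to 39.4 to 39.5 CPM with Col1a1-miR-29b and from 78.4 to 80.2 CPM to 45.5 to 46.9 CPM with CMV-miR-29b. Krt19 fell in Empty vector cells (log2 fold change −0.68, SE 0.08, edgeR adjusted p = 6.11e-05), whereas Krt14, at 17 to 197 counts, rose (1.53, SE 0.38, adjusted p = 0.023), and the median over the 4 tested markers was 0.42. Epcam, Krt18, Krt5, Krt8 and Cdh1 had at most 4, 12, 15, 27 and 40 counts. The part of these markers in the falls of Itga3 and Itga6 was not tested.

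Itga5 (chr15:103344286-103366763, minus strand), the α chain of the main fibronectin receptor, rose by a small and even step in each vector. Itga5 went from 174, 166 and 167 CPM to 219.6, 230.1 and 220.2 CPM in the Empty vector libraries. It went from 168, 171 and 164 CPM to 218, 217 and 209 CPM with Col1a1-miR-29b, and from 166, 167 and 149.6 CPM to 196, 208 and 199.96 CPM with CMV-miR-29b. All 9 treated libraries were above all 9 untreated ones. Its log2 fold change was 0.40 (SE 0.04, adjusted p = 1.87e-05) in Empty vector cells, a rise of 32.2%, 0.36 (SE 0.04, adjusted p = 7.96e-05) in Col1a1-miR-29b cells and 0.32 (SE 0.04, adjusted p = 0.000206) in CMV-miR-29b cells (edgeR).

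Itgav (chr2:83724397-83806916, plus strand), the α chain of the vitronectin receptors that also activate latent TGF-β, varied more between libraries than any other of the 6 most abundant subunits in both Empty vector groups and in CMV-miR-29b cells. Its levels in Empty vector cells were 156, 77.2 and 147 CPM without TGF-β and 87.9, 128 and 86.2 CPM with it. Those in Col1a1-miR-29b cells were 149, 138 and 143 CPM and 146, 161 and 154 CPM, and those in CMV-miR-29b cells 101, 148 and 113 CPM and 85.3, 89.5 and 77.2 CPM. Empty vector replicate d and Empty vector + TGF-β replicate d stood apart from the other 2 libraries of their groups, the first low and the second high, whereas both Col1a1-miR-29b groups were tight. The SD was 34.2% of the mean in Empty vector cells, against 2.54% for Itga5 and 2.84% for Itgb1. Its log2 fold change with TGF-β was −0.34 (SE 0.21, adjusted p = 0.486) in Empty vector cells, 0.10 (SE 0.21, adjusted p = 0.926) in Col1a1-miR-29b cells and −0.53 (SE 0.21, adjusted p = 0.225) in CMV-miR-29b cells (edgeR). Without Empty vector replicate d, the Empty vector value was −0.60 (adjusted p = 0.0482) and the value averaged over the vectors −0.34 (adjusted p = 0.0166). The genes listed inside Itgav had at most 47 counts per library.

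The β chains all rose. Itgb1 (chr8:128685654-128733200, plus strand), a partner of every α chain described here and the most abundant subunit, rose by a small step. Without TGF-β, Itgb1 had 935, 989.5 and 962 CPM with the Empty vector, 928, 939 and 937 CPM with Col1a1-miR-29b and 923, 935 and 931 CPM with CMV-miR-29b. With TGF-β the values were 1127, 1210.4 and 1179 CPM, 1120.0, 1135 and 1193 CPM and 1225, 1190.2 and 1161 CPM. Every treated library was above every untreated one. The log2 fold change was 0.29 (SE 0.03, adjusted p = 6.4e-05) in Empty vector cells, 0.30 (SE 0.03, adjusted p = 5.21e-05) in Col1a1-miR-29b cells and 0.36 (SE 0.03, adjusted p = 6.87e-06) in CMV-miR-29b cells (edgeR).

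Itgb5 (chr16:33829665-33949338, plus strand), a partner of Itgav in a vitronectin receptor, rose more. Itgb5 went from 66.1, 57.1 and 62.0 CPM to 106, 107 and 115 CPM in the Empty vector libraries. It went from 64.7, 62.8 and 59.6 CPM to 104, 101 and 108 CPM with Col1a1-miR-29b, and from 63.7, 62.3 and 62.6 CPM to 96.1, 106 and 107 CPM with CMV-miR-29b. The treated and untreated libraries did not overlap. Its log2 fold change was 0.82 (SE 0.06, adjusted p = 2.02e-07) in Empty vector cells, a 1.77-fold rise, 0.74 (SE 0.06, adjusted p = 9.71e-07) in Col1a1-miR-29b cells and 0.71 (SE 0.06, adjusted p = 1.35e-06) in CMV-miR-29b cells (edgeR).

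Itgb3 (chr11:104608000-104670476, plus strand), another partner of Itgav and also the β chain of the platelet fibrinogen receptor, rose from a low level. Its levels in Empty vector cells were 1.11, 0.612 and 0.691 CPM without TGF-β and 2.36, 2.87 and 3.22 CPM with it. Those in Col1a1-miR-29b cells were 0.660, 0.394 and 0.694 CPM and 1.66, 1.29 and 1.59 CPM, and those in CMV-miR-29b cells 0.790, 0.548 and 0.873 CPM and 1.19, 2.17 and 1.99 CPM. Again the groups did not overlap. Its log2 fold change was 1.81 (SE 0.30, adjusted p = 0.0012) in Empty vector cells, a 3.49-fold rise, 1.38 (SE 0.30, adjusted p = 0.0132) in Col1a1-miR-29b cells and 1.27 (SE 0.30, adjusted p = 0.0189) in CMV-miR-29b cells (edgeR). In Col1a1-miR-29b cells the call was lost without Col1a1-miR-29b replicate d (adjusted p = 0.0708), without Col1a1-miR-29b + TGF-β replicate c (0.0522), without the unlettered libraries (0.0756) and with limma on log2(FPKM + 1) (0.199) or log2(FPKM + 0.1) (0.136). In CMV-miR-29b cells it was lost without CMV-miR-29b replicate c (0.0564) or d (0.0911), without CMV-miR-29b + TGF-β replicate d (0.0906) or e (0.0728), and in the fit of the compared groups alone (0.102). Itga2b, the platelet partner of Itgb3, had 526 to 822 counts per library. Of the other platelet markers Gp1ba had 103 to 260, whereas Gp9 and Pf4 had at most 8 and 4. The 5 endothelial markers, at a similarly low level, summed to 1.22 to 1.87 CPM in Empty vector libraries and 3.27 to 3.76 CPM with TGF-β, to 1.67 to 2.07 and 2.71 to 3.27 CPM with Col1a1-miR-29b, and to 1.59 to 2.45 and 2.90 to 3.64 CPM with CMV-miR-29b. Among them Cdh5 rose in Empty vector cells (log2 fold change 1.74, SE 0.32, edgeR adjusted p = 0.00277). Kdr and Tek had at most 26 and 19 counts. The part of these markers in the rise of Itgb3 was not tested.

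**Figure D3:**
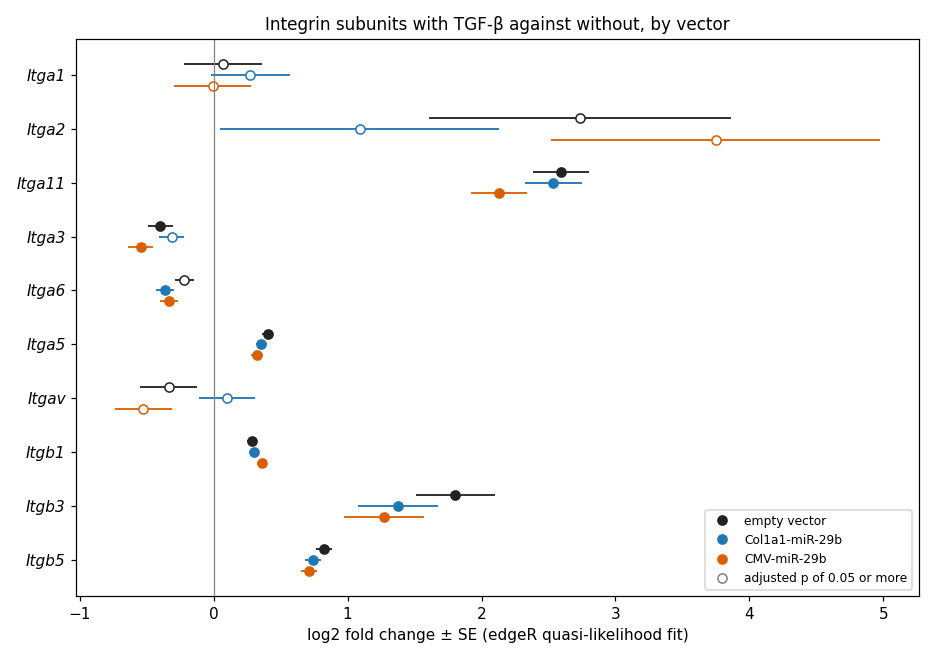
log2 fold change with TGF-β (points, with SE as whiskers) of the 10 subunits in Empty vector, Col1a1-miR-29b and CMV-miR-29b cells, filled where the adjusted p was under 0.05. Itga11, Itga5, Itgb1, Itgb3 and Itgb5 lie above 0 and are filled with each vector.

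Whether the response to TGF-β differed between vectors was tested as a contrast of the same model. None of the 10 subunits was called for Col1a1-miR-29b or for CMV-miR-29b, as for all genes (0.0% called in each), and none had an unadjusted p under 0.05 with edgeR, DESeq2 or limma. Over all genes, 961 and 1129 had an unadjusted p under 0.05 with edgeR, and DESeq2 called 21 and 19. For Col1a1-miR-29b the largest positive difference in log2 response was in Itgav, at 0.44 (SE 0.30, adjusted p = 1), and the largest negative one in Itga2, at −1.65 (SE 1.51, adjusted p = 1). For CMV-miR-29b they were in Itga2, at 1.01 (SE 1.61, adjusted p = 0.982), and Itgb3, at −0.53 (SE 0.41, adjusted p = 0.945) (edgeR). Without Empty vector replicate d the value of Itga2 for CMV-miR-29b turned to −4.84. The rise of Itga11 differed by −0.06 (SE 0.29) with Col1a1-miR-29b and by −0.46 (SE 0.28) with CMV-miR-29b, and that of Itgb1 by 0.01 (SE 0.05) and 0.07 (SE 0.05).

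The next comparison set the miR-29b plasmids against the Empty vector in cells treated with TGF-β. With Col1a1-miR-29b, 1 of the 10 subunits was called, Itga3, which was lower, where 12.9% of all genes were called in either direction (1123 higher and 1615 lower, or 1469 and 1323 with scaling by total counts). A count of 1 in 10 cannot be set apart from this share. Itga3 had 54.7, 47.5 and 50.2 CPM in Empty vector + TGF-β and 37.0, 41.6 and 39.2 CPM in Col1a1-miR-29b + TGF-β, without overlap. The log2 fold change was −0.37 (SE 0.09, adjusted p = 0.0175) (edgeR). The call was lost without Empty vector + TGF-β replicate c (adjusted p = 0.0728) or e (0.0572), without Col1a1-miR-29b + TGF-β replicate c (0.0809), without the unlettered libraries (0.0576), and with limma on log2(FPKM + 1) (0.078) or log2(FPKM + 0.1) (0.0718). The epithelial markers summed to 42.2 to 52.2 CPM in Empty vector + TGF-β and to 39.4 to 39.5 CPM in Col1a1-miR-29b + TGF-β, and their part in the result was not tested. The longest annotated 3′ UTR of Itga3 holds no match of the miR-29b seed, and whether miR-29b acts on Itga3 was not tested.

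A pair of subunits came close to the threshold in that comparison and were picked out after their values were seen. Itgb3, whose 3′ UTR holds a match, was lower in every Col1a1-miR-29b + TGF-β library (1.66, 1.29 and 1.59 CPM) than in any Empty vector + TGF-β library (2.36, 2.87 and 3.22 CPM), with a log2 fold change of −0.89 (SE 0.29, adjusted p = 0.0549) (edgeR). It passed with DESeq2 (adjusted p = 0.0219), with the filter of 10 counts in every library (0.0391), with limma on log2(FPKM + 1) (0.0378), in the fit of the compared groups alone (0.0495), with counts divided by 4 (0.0269), and without Empty vector replicate c (0.0423), Col1a1-miR-29b replicate d (0.0446) or CMV-miR-29b + TGF-β replicate c (0.0427). Itgav was higher, with a log2 fold change of 0.61 (SE 0.21, adjusted p = 0.0747) (edgeR), and passed with DESeq2 (0.023) and without Empty vector replicate d (0.0146) or Empty vector + TGF-β replicate d (0.0241). Itga5 and Itgb1, whose 3′ UTRs also hold a match, had log2 fold changes of −0.06 (SE 0.04) and −0.03 (SE 0.03). Whether miR-29b acts on any of these mRNAs was not tested.

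With CMV-miR-29b in cells treated with TGF-β, 0 of the 10 subunits were called by edgeR, DESeq2 or limma. With edgeR, 3 had an unadjusted p under 0.05, namely Itgb3, Itga5 and Itga3, all lower. Itga5 had a log2 fold change of −0.15 (SE 0.04, adjusted p = 0.211) and Itga3 of −0.28 (SE 0.09, adjusted p = 0.278) (edgeR). Neither overlapped with Empty vector + TGF-β. The share of all genes with an unadjusted p under 0.05 is not given here. Over all genes 0.00945% were called (2 genes, or 284 with DESeq2). The largest rise was in Itgb1, at 0.02 (SE 0.03, adjusted p = 0.859), and the largest fall in Itgb3, at −0.66 (SE 0.29, adjusted p = 0.382) (edgeR). Itgb3 had 1.19, 2.17 and 1.99 CPM in CMV-miR-29b + TGF-β, below all 3 Empty vector + TGF-β libraries. Without Empty vector + TGF-β replicate c the value of Itgb1 was −0.006.

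Without TGF-β, Itga3 was again the only one of the 10 subunits called with Col1a1-miR-29b, where 6.27% of all genes were called (543 higher and 784 lower, or 679 and 643 with scaling by total counts). Here too, 1 of 10 cannot be set apart from the share over all genes. Itga3 had 75.5, 59.8 and 65.3 CPM in Empty vector and 52.1, 48.1 and 46.1 CPM in Col1a1-miR-29b cells, without overlap. The log2 fold change was −0.45 (SE 0.09, adjusted p = 0.0124) (edgeR). The call was lost without Empty vector replicate c (adjusted p = 0.0551), without the unlettered Col1a1-miR-29b library (0.0502), without both unlettered libraries (0.0665), and with limma on log2(FPKM + 1) (0.0767) or log2(FPKM + 0.1) (0.0798). The epithelial markers summed to 69.1 to 84.2 CPM in Empty vector and to 64.5 to 65.0 CPM in Col1a1-miR-29b cells, and their part in the result was not tested. Itga1, picked out after its values were seen, had a log2 fold change of −0.84 (SE 0.29, adjusted p = 0.103) (edgeR) and passed with DESeq2 (adjusted p = 0.046). Without Empty vector replicate d, Itga2 was called as higher beside Itga3, but the remaining Empty vector libraries were then at 0 counts and the fitted value is no estimate.

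With CMV-miR-29b and no TGF-β, 0 of the 10 subunits were called by edgeR, DESeq2 or limma. With edgeR 1, Itga11, had an unadjusted p under 0.05, and the share of all genes under it is not given here. Over all genes 0.00473% were called (1 gene, or 37 with DESeq2). The largest rise was in Itga11, at 0.47 (SE 0.21, adjusted p = 0.88), and the largest fall in Itga2, at −1.12 (SE 1.28, adjusted p = 0.992) (edgeR). Without Empty vector replicate d the value of Itga2 turned to 4.74.

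**Figure D4:**
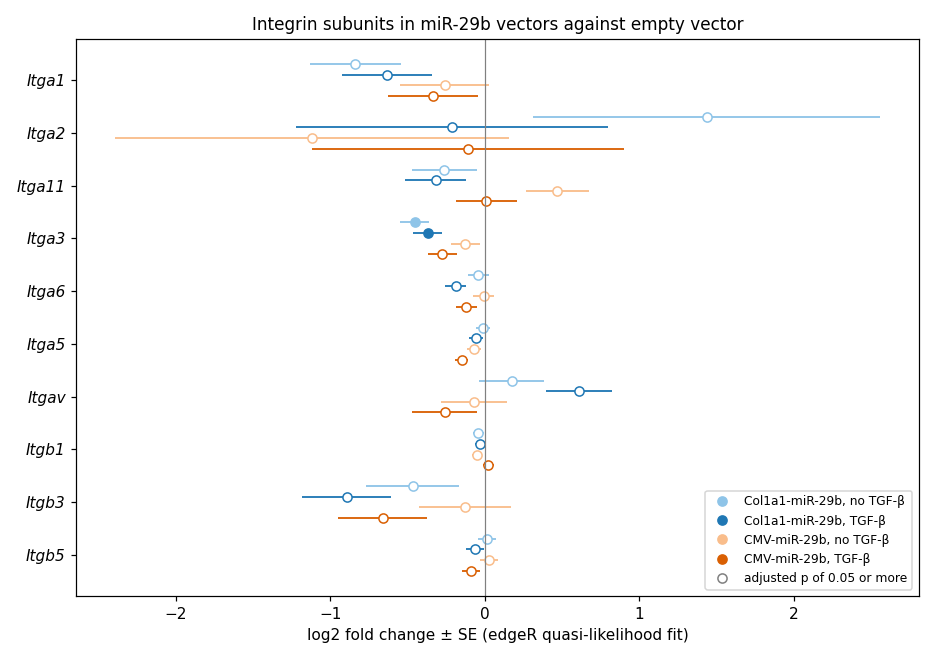
log2 fold change against the Empty vector (points, with SE as whiskers) of the 10 subunits with Col1a1-miR-29b and CMV-miR-29b, without and with TGF-β, filled where the adjusted p was under 0.05. Itga3 with Col1a1-miR-29b is the subunit with filled points.

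Of 18 other genes listed as integrin subunits, 10 passed the filter on low counts. Among leukocyte chains, Itgad, Itgax and Itgam had at most 10 counts in any library. The leukocyte chains Itgal, Itgae, Itgb2 and Itgb7 had 4 to 48, 47 to 90, 22 to 137 and 54 to 197 counts. TGF-β in Empty vector cells called 0 of the 10 that passed as higher and 1 as lower, counts that 10 genes cannot set apart from the 3.88% and 2.01% of all genes. That was Itgb8, a partner of Itgav in the activation of latent TGF-β, with a log2 fold change of −0.74 (SE 0.14, edgeR adjusted p = 0.00345), and it was also lower in Col1a1-miR-29b cells (−0.83, SE 0.14) and CMV-miR-29b cells (−0.78, SE 0.14). Averaged over the vectors, Itgb2 and Itgb7 were called lower beside Itgb8. These were 3 of the 10 genes tested, with 0 called higher, beside 5.86% lower and 7.83% higher over all genes. Itgb6, an epithelial partner of Itgav named after its values were seen, rose with Col1a1-miR-29b over Empty vector when both had TGF-β (log2 fold change 3.07, SE 0.66, edgeR adjusted p = 0.00689), at 3 to 59 counts per library.

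Of 33 genes of integrin ligands, 30 were tested. In Empty vector cells TGF-β raised 16 and lowered 3, beside 3.88% and 2.01% of all genes, with a median log2 fold change of 0.72 beside 0.002 over all genes. The largest rises were in Col6a3, a chain of collagen VI (3.96, SE 0.56, edgeR adjusted p = 0.000324), Postn, a matricellular ligand of αv integrins (3.59, SE 0.71, adjusted p = 0.005), the matricellular Ccn2 (1.74, SE 0.10, adjusted p = 1.14e-08) and Col1a2, a chain of collagen I (1.48, SE 0.10, adjusted p = 8.2e-08). Col6a3 and Postn were scarce, at 4 to 237 and 4 to 289 counts per library. The more abundant collagen VI chains Col6a1 (9236 to 14976 counts) and Col6a2 (4451 to 7055) were called lower (−0.28, SE 0.05, and −0.31, SE 0.05). In cells with TGF-β, Col1a1-miR-29b lowered 13 of the 30 and raised 0, beside 1615 genes lower and 1123 higher among all 21161. CMV-miR-29b with TGF-β called 0 of the 30, where 0.00945% of all genes were called.

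Genes of the proteins that join integrins to the cell were taken in 3 lists. The first held 12 tested genes listed as integrin activators and inhibitors. Those called with TGF-β included the actin crosslinker Flna, which rose (log2 fold change 0.37, SE 0.07, edgeR adjusted p = 0.00236), and Kank1, which fell (−0.40, SE 0.10, adjusted p = 0.0274). Among 18 adhesion adaptors and kinases it raised 3, the tensins Tns1 (0.77, SE 0.09) and Tns3 (0.55, SE 0.07) and the actin crosslinker Actn1 (0.37, SE 0.05), and lowered 0. Among 10 membrane partners it raised 1, the urokinase receptor Plaur (0.82, SE 0.09, adjusted p = 1.33e-05). Over all genes 3.88% were called higher and 2.01% lower, and 1 of 10 membrane partners cannot be set apart from these shares. The medians of the 3 lists were 0.08, 0.14 and 0.002, beside 0.002 over all genes. In cells with TGF-β, Col1a1-miR-29b lowered 3 activators or inhibitors, 1 adaptor or kinase and 1 membrane partner, and raised 1 membrane partner, beside 12.9% of all genes called in either direction.

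**Figure D5:**
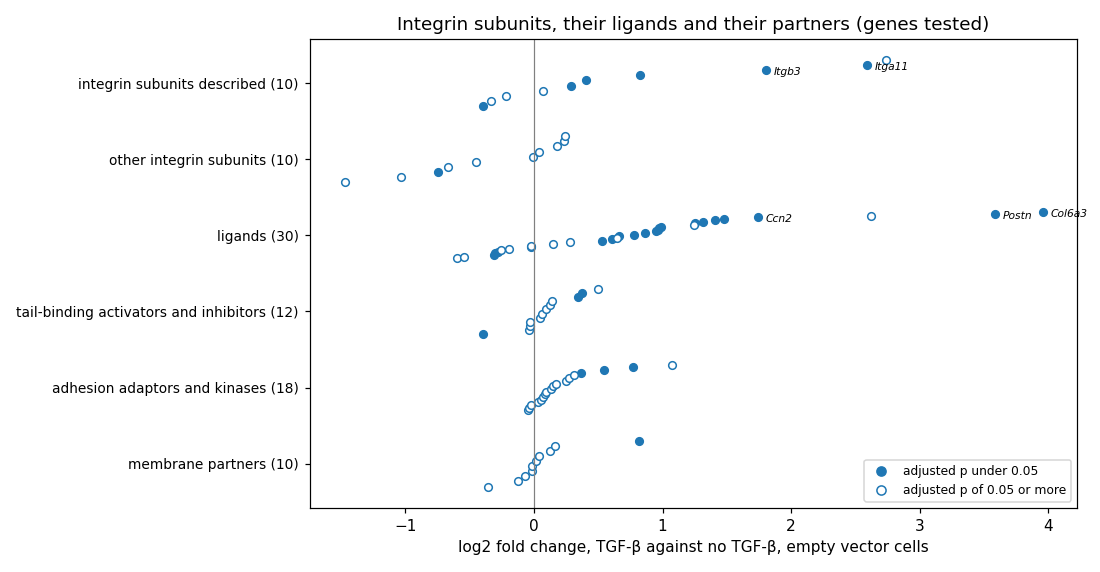
log2 fold change with TGF-β in Empty vector cells of each tested gene, in the 10 subunits and 5 lists of other subunits, ligands and partners (number tested in brackets), filled where the adjusted p was under 0.05. Of the 30 ligand genes 16 are filled above 0, and 3 are filled below 0.

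Over all 18 libraries, the 5 genes whose log2(CPM + 0.5) was most like that of Itga11 were Megf10 (Pearson r = 0.974), Pdgfb (0.973), Kcnq3 (0.972), Map2k1 (0.972) and Anxa5 (0.97), out of 13912 genes with a mean of at least 1 CPM. Of the other subunits Itgb5 (0.958) and Itgb1 (0.951) ranked highest, and Itga6 (−0.83) lowest. The libraries fall into treated and untreated ones, which these values share with the response to TGF-β, and they are a description.

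Itga11 rose most among the subunits called with each vector. The promoter windows of 300 bases (250 before to 50 after the start, RefSeq, build GRCm38.p6) are given for Itga11 and its partner Itgb1. Both are on the plus strand, and capitals mark the Smad box (CAGAC) on either strand.
Itga11, chr9:62677605-62677904: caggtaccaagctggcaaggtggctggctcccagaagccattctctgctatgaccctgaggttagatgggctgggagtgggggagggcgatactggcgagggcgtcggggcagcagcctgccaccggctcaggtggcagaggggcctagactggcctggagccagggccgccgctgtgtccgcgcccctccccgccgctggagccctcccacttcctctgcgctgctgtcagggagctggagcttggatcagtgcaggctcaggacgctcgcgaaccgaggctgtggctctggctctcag
Itgb1, chr8:128685404-128685703: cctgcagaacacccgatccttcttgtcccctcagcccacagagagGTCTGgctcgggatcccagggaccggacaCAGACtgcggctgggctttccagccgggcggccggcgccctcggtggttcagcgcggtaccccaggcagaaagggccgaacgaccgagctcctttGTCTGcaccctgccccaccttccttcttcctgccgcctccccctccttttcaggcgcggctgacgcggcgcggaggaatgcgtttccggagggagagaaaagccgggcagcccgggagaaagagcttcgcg
The window of Itgb1 held 3 Smad boxes and that of Itga11 held 0, where 49.6% of 32851 windows hold at least 1. Neither held an AP-1 element (TGACTCA, either strand), which is in 5.2% of windows. That these letters are absent from a window says nothing of the factors that bind there.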

How the data were processed

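Poly(A) RNA was sequenced as paired ends on an Illumina NovaSeq. The authors deposited counts and FPKM per gene, made with cutadapt, HISAT2 and StringTie. The submitters' notes name mm9, whereas 52506 of 55450 genes have the coordinates of GENCODE M21 (GRCm38), and positions are given on that build. The strand setting of the counting is not given in the sources used here. Of the deposited counts from 1 to 40, 35.2% were multiples of 4, so low counts may hold fewer independent reads than they show. This was not tested directly, but an alternative with counts divided by 4 was run. The deposited fold change and p-value columns were not used. Totals were 65898017 to 80332633 per library, which limits subunits such as Itga2.

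The third Col1a1-miR-29b library of each treatment was matched to its group only, and 2 columns of per-sample values were not used, so FPKM covers 16 libraries. Counts were tested with edgeR 4.0.16 (R 4.3.3) by quasi-likelihood after filterByExpr and TMM, in a model of 6 group means over 18 libraries, with Benjamini-Hochberg adjustment over 21161 genes and a threshold of 0.05. SE is the log2 fold change over the root of F. The scripts were tested on simulated data. Alternatives used DESeq2 1.42.0, limma 3.58.1 on log2(FPKM + 1) and log2(FPKM + 0.1), other scalings and filters, a replicate block, and each library left out. A deposited FPKM of 0.0001 stands for 0.

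All 10 subunits are named. From each list of other genes, at most 4 called genes with the largest change in Empty vector cells are named, and in comparisons of vectors those called or else the largest rise and fall. Col6a1 and Col6a2 are named in addition, as chains of the same collagen as Col6a3. A called gene of these lists is not reported here. The subunits and lists were chosen with earlier results of these data known.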

Additional observations from a re-analysis of the deposited data

How the results depend on the processing

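Itga11, Itga5, Itgb1 and Itgb5 kept direction and call with TGF-β in each vector under every alternative run. Leaving out 1 library kept 921 values on their side, ended 15 calls, gained 11 and reversed 7, and other alternatives kept 531, ended 20 and gained 14. The causes were not tested. With only the groups compared, genes called were 618 for TGF-β in Empty vector cells (1245 with all groups), 527 in CMV-miR-29b cells (1047), 1072 for Col1a1-miR-29b against Empty vector with TGF-β (2738) and 782 without (1327), 7 and 10 for CMV-miR-29b with and without TGF-β (2 and 1), and 1 for each difference in response (0). With limma on log2(FPKM + 0.1) and log2(FPKM + 1), they were 465 and 494 for TGF-β in Col1a1-miR-29b cells (914), 1633 and 1752 for Col1a1-miR-29b with TGF-β, 390 and 481 without, and 3 and 3 for its difference in response. DESeq2 called 2362 for Col1a1-miR-29b without TGF-β, 284 and 37 for CMV-miR-29b with and without, and 21 and 19 for the differences. For CMV-miR-29b with TGF-β, the filter of 1 count in any library gave 4, and that of 10 counts in every library and counts divided by 4 gave 1 each. Without TGF-β both of the latter gave 0. Without the unlettered libraries, chosen after seeing the data as were the counts divided by 4, genes called were 453 for TGF-β in Col1a1-miR-29b cells, 1659 and 397 for Col1a1-miR-29b with and without TGF-β, and 3 for its difference in response.

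Of the 10 subunits, Col1a1-miR-29b with TGF-β called 1, but 3 with DESeq2, 2 with the filter of 10 counts, with counts divided by 4 and with only the groups compared, and 0 with limma on log2(FPKM + 0.1) and without the unlettered libraries. Without TGF-β it called 1, but 2 with DESeq2 and 0 with either limma fit and without the unlettered libraries.

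The replicate letters c, d and e gave no pairing. Deviations from the group means correlated at 0.0049 on average over 36 pairs of libraries of the same letter and at −0.0027 over 70 of different letters, and 8 of 16 lettered libraries correlated best with their own letter. With a replicate block on the letter, which leaves out the unlettered libraries, genes called were 394 for TGF-β in Col1a1-miR-29b cells, 1152 and 161 for Col1a1-miR-29b with and without TGF-β, and 2 for its difference in response, and 0 subunits were called for Col1a1-miR-29b with or without TGF-β. The block ended the calls of Itga6 (adjusted p = 0.114) and Itgb3 (0.106) in Col1a1-miR-29b cells in edgeR, and that of Itga3 for Col1a1-miR-29b against Empty vector with TGF-β (0.0701) and without (0.0883).

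Leaving out 1 library gave 725 (without Empty vector + TGF-β replicate e) to 1428 genes for TGF-β in Empty vector cells, 1291 (without the same library) to 3182 genes and 0 to 2 subunits for Col1a1-miR-29b with TGF-β, 468 (without Empty vector replicate c) to 1706 genes and 0 to 2 subunits without it, 2 to 160 and 1 to 5 genes for CMV-miR-29b with and without TGF-β, and 0 to 3 and 0 to 2 for the differences in response. For Col1a1-miR-29b with TGF-β, 1498 genes were called without Col1a1-miR-29b + TGF-β replicate c, 1666 without Empty vector + TGF-β replicate c and 1810 without the unlettered library. Without TGF-β, 482 were called without Col1a1-miR-29b replicate d, 567 without Empty vector replicate d, 640 without the unlettered library and 823 without Col1a1-miR-29b replicate c. Directions turned for values that were never called. Itga1 ranged from −0.16 to 0.39 in Empty vector cells, below 0 without Empty vector replicate d (−0.16) or Empty vector + TGF-β replicate e (−0.05), and from −0.21 to 0.16 in CMV-miR-29b cells, above 0 without CMV-miR-29b replicate c (0.11) or CMV-miR-29b + TGF-β replicate e (0.16). Itgb1 for CMV-miR-29b with TGF-β ranged from −0.0065 (without Empty vector + TGF-β replicate c) to 0.042. Itga2 ranged from −5.87 to 4.74 for CMV-miR-29b without TGF-β and from −4.84 to 5.76 for its difference in response, with both signs turned without Empty vector replicate d. The shares of Itga5, Itga11 and Itgb1 in the FPKM of Empty vector groups moved by less than 1 SD with union exon lengths and with each library left out. In Col1a1-miR-29b cells the share of Itga6 was 12.7% ± 0.245 by FPKM of 2 libraries and 13.2% ± 0.945 by union exon length over 3. Depth limits Itga2 most, whose untreated libraries hold 0 to 23 counts.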
